A study of Mus musculus with 12 samples.

Results

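The serpins are a superfamily of protease inhibitors, and their messages were measured here in the livers of mice that lack Fah, the last enzyme of tyrosine breakdown. A serpin was taken as any gene whose probe set on the Affymetrix 430A array has a single platform symbol that starts with Serpin. The rule found 30 genes with 39 probe sets, of 12393 genes with a single symbol on that array. The letter after Serpin names the clade, and the 30 genes comprise 8 of clade A, 14 of clade B, 2 each of clades F and I, and 1 each of clades C, D, G and H.

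All mice were adults, 10 weeks of age. NTBC is a drug that blocks an early step of tyrosine breakdown, so that mice without Fah do not build up the toxic late products while they receive it. The normal group on 430A pools 4 livers, 1 from each of 4 conditions: a wildtype mouse on water (normal 1), a wildtype mouse on NTBC (normal 2), a Fah knockout mouse on NTBC (normal 3) and a Fah, p21 double knockout mouse on NTBC (normal 4). The Fah off group holds 3 livers of Fah knockout mice taken off the drug for 14 days, and the Fah p21 off group holds 2 livers of mice that lack both Fah and p21, the cell cycle inhibitor encoded by Cdkn1a, taken off it for the same time. Both off groups therefore share the Fah deletion, and only normal 3 and normal 4 carry it among the controls. On a second array, 430 2.0, 1 liver titled normal number 4, of a Fah, p21 double knockout mouse on NTBC, and 2 further double knockout livers off the drug, numbers 3 and 4, were measured. The titles call the arrays biological replicates, and the p-values measure the spread between them, which in the normal group includes differences between its 4 conditions.

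Most serpins inhibit serine proteases by offering a reactive loop that the protease cuts, after which the inhibitor changes shape and traps the protease in a covalent complex. Hepatocytes secrete the serpins of plasma, which restrain clotting, fibrinolysis, complement and neutrophil proteases. Members of clade B stay inside cells, and some serpins inhibit nothing, serving instead as hormone carriers or as a chaperone of collagen.

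The mouse has several near-identical copies of the gene for alpha1-antitrypsin, the main plasma inhibitor of neutrophil elastase, and the array does not separate them well. The stretches before their start sites, shown to let this likeness be seen, come from the RefSeq promoter windows of GRCm38.p6, on the minus strand of chromosome 12. Capitals mark GTTAAT, the core of the sites bound by the hepatocyte factor HNF1.
Serpina1a, chr12:103863626-103863700: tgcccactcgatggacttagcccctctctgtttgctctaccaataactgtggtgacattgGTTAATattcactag
Serpina1b, chr12:103738201-103738275: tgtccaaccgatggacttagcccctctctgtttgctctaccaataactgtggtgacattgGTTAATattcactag
Serpina1c, chr12:103904963-103905037: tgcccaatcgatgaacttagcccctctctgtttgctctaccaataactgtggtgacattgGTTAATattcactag
Serpina1d, chr12:103773635-103773709: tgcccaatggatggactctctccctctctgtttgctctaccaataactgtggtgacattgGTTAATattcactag
Serpina1e, chr12:103956961-103957035: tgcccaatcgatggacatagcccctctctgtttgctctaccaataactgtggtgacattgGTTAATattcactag

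Over the 10 pairs of these 5 copies, between 68 and 73 of 75 bases were the same. Serpina1b and Serpina1c have single-symbol probe sets on 430A and are members, though those of Serpina1b are of a type whose probes can match related genes. The other copies were read only through probe sets that carry several symbols, which are not members.

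Serpina5 encodes the protein C inhibitor and had the largest change of the serpins tested on 430A. The 250 bases before its start site, on the plus strand at chr12:104100863-104101112, are shown because they hold, in capitals, TTGCGCAA, a palindrome that C/EBP factors bind.
Serpina5: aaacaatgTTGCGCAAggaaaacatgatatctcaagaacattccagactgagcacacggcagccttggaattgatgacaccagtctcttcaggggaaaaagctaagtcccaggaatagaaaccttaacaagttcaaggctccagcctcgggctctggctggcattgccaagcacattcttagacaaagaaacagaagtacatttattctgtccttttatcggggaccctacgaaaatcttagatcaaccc

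Serpind1 encodes heparin cofactor II. A stretch of 69 bases before its start site, on the plus strand at chr16:17331273-17331341, is shown with the core of an antioxidant response element, the site of Nrf2, in capitals.
Serpind1: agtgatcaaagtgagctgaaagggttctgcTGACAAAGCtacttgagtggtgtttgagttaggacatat

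RefSeq promoter windows were matched for 26 of the 30 genes, and their 250 bases before the start site were searched on both strands for 5 motifs, none of which contains another. GTTAAT was in 6.43% of all 32851 windows, TTGCGCAA in 0.164%, the core TGACNNNGC in 10.2%, the TATA box TATAAA in 12.4% and the HNF4 site CAAAGTCCA in 0.384%. Of 10 genes whose main probe set was lower in Fah off liver, 7 had a window, and GTTAAT was in 3 of them (Serpina1b, Serpina1c and Serpinb8) and TGACNNNGC in 1 (Serpind1). Of 4 genes whose main probe set was higher, all with a window, TTGCGCAA was in Serpina5 and TGACNNNGC in Serpinb6a. TATAAA and CAAAGTCCA were in none of the windows of these 11 genes. A gene counted if any of its windows held the motif, whereas the shares above are per window. Serpina1b and Serpina1c share 72 of the 75 bases shown, so their matches are not independent. A match is a description of the letters only.

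Array signals are MAS5 values on a linear scale, and changes are differences of log2(signal + 9.9) with their SE from 1 limma fit over all 9 arrays. A fold change on this scale is understated for dim probe sets, and with so few arrays the precision of any value is limited. A gene's main probe set is the one with the highest mean log2 signal. A probe set was tested if it reached its array's 40th percentile of signal on at least 2 arrays. In this test 15307 of 22626 probe sets were covered, 24 of the 39 serpin probe sets among them (61.5%). The main probe set was tested for 20 of the 30 serpin genes (66.7%, against 74.2% of all genes), and the counts that follow are of tested members only. A probe set passed at a Benjamini-Hochberg adjusted p under 0.05. Of the 39 serpin probe sets 4 are of the _s_at and 4 of the _x_at type, which can match more than 1 transcript, and 2 and 3 of these were tested. Without them 4 serpin probe sets were higher and 9 lower in Fah off liver, and 5 were higher and 8 lower in Fah p21 off liver.

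Most plasma serpins tested were lower in both groups off NTBC, while Serpina5, Serpinb6a, Serpinb9 and Serpini1 were higher in both. In Fah off liver 16 of 24 serpin probe sets passed, 4 higher and 12 lower. Over all probe sets tested 20.1% were higher and 15.4% lower. By main probe sets 4 of 20 serpins were higher and 10 lower, where all genes gave 19.7% and 16.5%. The median change was -0.30 for the 20 serpins and 0.00 for all main probe sets. In Fah p21 off liver 5 of 24 serpin probe sets were higher and 11 lower, beside 17.7% and 10.7% of all probe sets. The main probe sets of 4 serpins were higher and of 9 lower, beside 17.8% and 11.5% of all genes, with medians of 0.00 and 0.09. The share of higher calls among the serpins was thus close to that of all genes, and the share of lower calls was above it. Both comparisons use the same 4 normal livers. With the liver of the same genotype on NTBC as the only control, 13 serpin probe sets passed in Fah off liver and 9 in Fah p21 off liver. In this and every other fit that leaves 1 liver in a group, that liver is assumed to vary as the other groups do. A call lost there is not by itself a sign of a smaller change, although some of the changes were also smaller.

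By clade, in Fah off liver 1 tested clade A gene was higher, 4 were lower and 2 did not pass, and the counts in Fah p21 off liver were the same. Of 6 tested clade B genes 2 were higher, 1 was lower and 3 did not pass in Fah off liver, while 2 were higher and 4 did not pass in Fah p21 off liver. Every gene of clades C, D, F and G, namely Serpinc1, Serpind1, Serpinf1, Serpinf2 and Serping1, was lower in both groups. The only tested gene of clade I was higher in both, and the main probe set of the only clade H gene passed in neither.

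**Figure D1:**
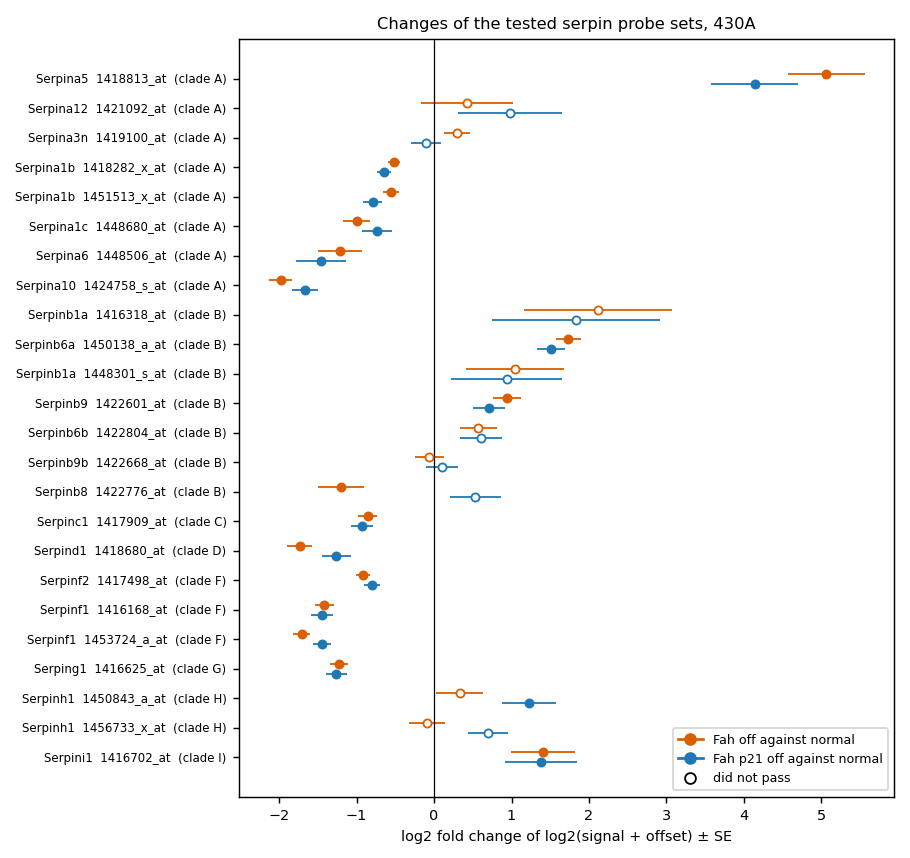
Change of each of the 24 tested serpin probe sets, as log2 fold change with its SE, in Fah off and Fah p21 off liver against the 4 normal livers; filled points passed and open points did not. Serpina5 lies farthest to the right at 5.06 and 4.14, and the plasma serpins other than Serpina3n lie left of 0 in both comparisons.

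Inhibitors of clotting and fibrinolysis come first. Serpinc1 encodes antithrombin, the heparin-activated inhibitor of thrombin and factor Xa. Its signal was 12358.7, 11053, 12240.6 and 12136.4 in normal 1 to 4, 7768, 6711.2 and 5501.9 in the Fah off livers, and 5774.7 and 6809 in the Fah p21 off livers. Every liver off NTBC lay below every normal liver. Antithrombin message was 1.81-fold lower in Fah off liver (log2 change -0.85 ± 0.12, adjusted p = 3.0e-04) and 1.90-fold lower in Fah p21 off liver (-0.93 ± 0.14, adjusted p = 6.0e-04). After quantile normalization the second of these changes was -0.38 with an adjusted p of 0.108.

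Serpind1, whose product inhibits thrombin when bound to dermatan sulfate or heparin, was at 4515.4, 4587.4, 4414 and 3875.6 in the normal livers. It was at 1544.4, 1496.1 and 944.2 in the Fah off livers and at 1761.6 and 1841.8 in the Fah p21 off livers. The 3 groups did not overlap, with Fah off lowest. The fall was 3.33-fold in Fah off liver (-1.73 ± 0.17, adjusted p = 1.7e-05) and 2.40-fold in Fah p21 off liver (-1.26 ± 0.19, adjusted p = 5.6e-04). With the liver of the same genotype on NTBC as the only control, the latter was -1.10 with an adjusted p of 0.0538.

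Serpina10 encodes the protein Z-dependent inhibitor of factor Xa. Its signal was 5137.4, 4050.6, 3212.4 and 3943.9 in the normal livers, 1071.5, 1008.7 and 966.8 in the Fah off livers, and 1183.8 and 1350.6 in the Fah p21 off livers. Again the 3 groups did not overlap and Fah off was lowest. This was the steepest fall among the single-symbol serpin probe sets of 430A, 3.94-fold in Fah off liver (-1.98 ± 0.15, adjusted p = 3.9e-06) and 3.17-fold in Fah p21 off liver (-1.66 ± 0.17, adjusted p = 5.6e-05). The probe set is of the _s_at type.

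Serpinf2 encodes alpha2-antiplasmin, the main inhibitor of plasmin. Its 4 normal values lay between 6701.8 and 6888.1, the Fah off livers were at 3594.4, 3873.3 and 3307.1, and the Fah p21 off livers at 3835.2 and 3941.3. The fall was 1.89-fold in Fah off liver (-0.92 ± 0.09, adjusted p = 2.7e-05) and 1.74-fold in Fah p21 off liver (-0.80 ± 0.11, adjusted p = 2.7e-04).

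Serping1 encodes C1 inhibitor, which restrains the C1r and C1s proteases of complement as well as plasma kallikrein and factor XIIa. Its signal was 7282.7, 7106.3, 7933.3 and 7767.5 in the normal livers, 3012.2, 3346.9 and 3290.4 in the Fah off livers, and 2681.6 and 3646.2 in the Fah p21 off livers. Both off groups lay wholly below the normal livers and overlapped each other. The changes were 2.33-fold (-1.22 ± 0.12, adjusted p = 2.0e-05) and 2.40-fold lower (-1.26 ± 0.13, adjusted p = 6.6e-05).

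Serpinf1 encodes pigment epithelium-derived factor, a secreted serpin that inhibits no protease. The main probe set was at 7627.8, 7841.6, 6519.4 and 6130.5 in the normal livers, at 2718.4, 2847.4 and 2294.8 in the Fah off livers and at 2588.9 and 2527.1 in the Fah p21 off livers. Both off groups were below every normal liver, by 2.67-fold (-1.42 ± 0.12, adjusted p = 9.1e-06) and 2.73-fold (-1.45 ± 0.14, adjusted p = 3.6e-05). A further probe set of the gene fell by 1.71 in Fah off liver and by 1.44 in Fah p21 off liver on the log2 scale.

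Serpina6 encodes corticosteroid-binding globulin, the plasma carrier of glucocorticoids. Normal 1 to 4 were at 3002, 3927.5, 5348.8 and 2813.5, a wide spread with the Fah knockout on NTBC highest. The Fah off livers were at 1964, 1771 and 1107.4 and the Fah p21 off livers at 1814.6 and 964.7, all below the lowest normal liver. The message was 2.32-fold lower in Fah off liver (-1.21 ± 0.28, adjusted p = 6.2e-03) and 2.74-fold lower in Fah p21 off liver (-1.46 ± 0.32, adjusted p = 5.9e-03). Without Fah p21 off liver 2 the second change was -1.004 with an adjusted p of 0.0949, and with the genotype-matched liver as the only control it was -1.08 with an adjusted p of 0.151.

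Among the alpha1-antitrypsin copies, Serpina1c was at 18098, 18207.4, 15884.1 and 16082.7 in the normal livers. It was at 10299.8, 10294.1 and 5827.2 in the Fah off livers, with liver 3 well below the others, and at 10033.7 and 10412.4 in the Fah p21 off livers. The change was -0.999 ± 0.18 in Fah off liver (2.00-fold lower, adjusted p = 1.2e-03) and -0.74 ± 0.20 in Fah p21 off liver (adjusted p = 0.018). Serpina1b, by an _x_at probe set whose probes also match related genes, was at 15424.3 to 16430.3 in the normal livers, 10863.2 to 11435.6 in the Fah off livers and 10256.5 and 10161 in the Fah p21 off livers. Its changes were smaller, at -0.51 ± 0.08 (adjusted p = 3.6e-04) and -0.65 ± 0.09 (adjusted p = 2.9e-04), and a further _x_at probe set fell by 0.56 and 0.79 on the log2 scale.

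The calls on the alpha1-antitrypsin copies depended on scaling. After quantile normalization both Serpina1b probe sets passed in neither group, with changes of -0.10 and -0.15 in Fah off liver and -0.07 and -0.22 in Fah p21 off liver, and Serpina1c was at -0.16 in Fah p21 off liver with an adjusted p of 0.656. Without either Fah p21 off liver the Serpina1c change there was as large, at -0.71 and -0.76, but missed the threshold at adjusted p of 0.112 and 0.0872. With the genotype-matched control it was -0.90 and -0.65 in the groups and passed in neither, at adjusted p of 0.0862 and 0.242.

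Probe sets that several alpha1-antitrypsin copies share are not members, and their signals went the same way with unequal size. For the first, normal livers were at 1269.6 to 2315.6, the Fah off livers at 281.2, 286.8 and 94.3, and the Fah p21 off livers at 408.8 and 432.5. Its changes were -3.22 ± 0.34 and -2.18 ± 0.39. For the second the values were 6411.5 to 9983.9 in normal livers, 4203.1, 4492.9 and 2554.6 in Fah off livers, and 4921.9 and 4709.9 in Fah p21 off livers. Since the copies share probes, a change cannot be assigned to 1 of them.

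Serpina3n, a mouse counterpart of alpha1-antichymotrypsin whose message rises in the acute phase response, passed in neither comparison. Its signal was between 2924.9 and 3149.6 in the normal livers, 3678.9, 3188.1 and 4400 in the Fah off livers, and 2173.7 and 3650.1 in the Fah p21 off livers. The 3 Fah off livers lay above all normal livers, but the change was 0.30 ± 0.17 with an adjusted p of 0.197. In Fah p21 off liver the change was -0.10 ± 0.19.

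**Figure D2:**
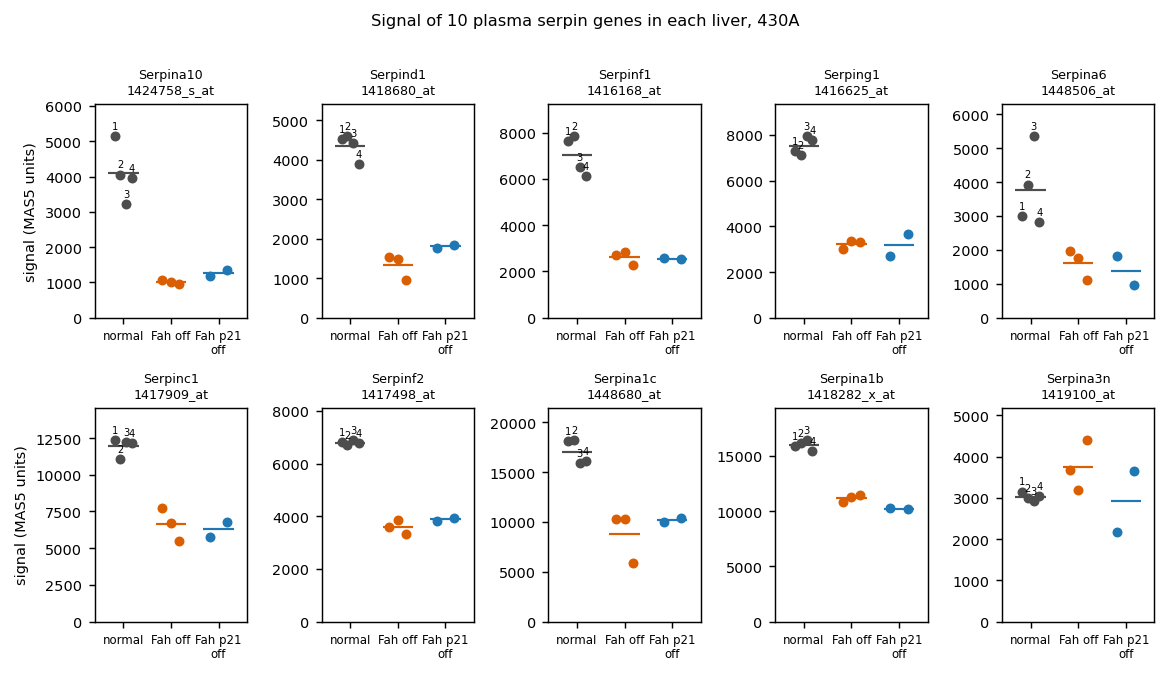
Signal of plasma serpin probe sets in each liver on 430A, in MAS5 units on linear axes that start at 0; the numbers 1 to 4 mark the normal livers and horizontal lines are group means. The livers off NTBC lie below the normal livers in every panel but that of Serpina3n, where the Fah off livers lie between 3188.1 and 4400.

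The 10 plasma serpin genes Serpina10, Serpina1b, Serpina1c, Serpina3n, Serpina6, Serpinc1, Serpind1, Serpinf1, Serpinf2 and Serping1 were also averaged in each liver, a set put together after their values had been seen. Against the normal mean, their mean log2 difference was 0.04, 0.02, 0.02 and -0.08 in normal 1 to 4. In Fah off livers 1 to 3 it was -0.95, -0.98 and -1.24, and in the Fah p21 off livers -1.07 and -0.99. In 4 of the 5 livers off NTBC 9 of the 10 genes were below the lowest normal liver, and in Fah p21 off liver 1 all 10 were. The share of all genes that lay so was not counted. All of the set but Serpina3n had already been called lower in these livers, so the count restates those calls.

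Among the Fah off livers, liver 3 had the lowest signal in 15 of the 24 serpin probe sets (62.5%), and in 46.4% of all probe sets tested. Without it 3 serpin probe sets were higher and 12 lower in Fah off liver. Its part in the size of the changes was not tested beyond this.

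Hepatocyte markers moved with the plasma serpins. All 8 tested hepatocyte markers of 8 on the array were lower in both groups, beside 16.5% and 11.5% of all genes, with medians of -0.51 and -0.67. Their summed signal was 119926 to 125462 in the normal livers, 75188 to 83982 in the Fah off livers and 71641.6 to 76699.2 in the Fah p21 off livers. In bulk tissue fewer hepatocytes and less RNA per hepatocyte cannot be told apart. In all 9 livers these markers were bright, and the tissue is labelled as liver.

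Serpina5 stood apart from the other clade A genes. Protein C inhibitor inactivates activated protein C and several other proteases, and mouse liver is known to carry little of its message. The signal was 6.8, 4.1, 2.6 and 15.3 in the normal livers, all near the floor of the array. It was 1022.8, 821.5 and 183.6 in the Fah off livers and 253.8 and 310.3 in the Fah p21 off livers. Each liver off NTBC was far above each normal liver, with Fah off liver 3 the lowest of the 5. The probe set entered the test through the livers off NTBC, where it was bright, so a difference was implied by its entry. Its fold rests on normal values near the offset of the scale and is not exact. The change was 33.4-fold (5.06 ± 0.50, adjusted p = 2.1e-05) in Fah off liver and 17.6-fold (4.14 ± 0.56, adjusted p = 3.3e-04) in Fah p21 off liver. Over the alternative settings the change ran from 3.66 to 6.54 in Fah off liver and from 2.78 to 5.60 in Fah p21 off liver, and it passed in all 22 settings of each.

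Serpina5 lies in the Serpina cluster of chromosome 12, where changes of its neighbours can be set beside it. In the gene order of GRCm38.p6 the cluster runs from Serpina10 and Serpina6 through the alpha1-antitrypsin copies, Serpina11, Serpina9, Serpina12 and Serpina4-ps1 to Serpina5 and then the Serpina3 genes. At the start Serpina10 and Serpina6 were lower (-1.98 and -1.21 in Fah off liver), the tested alpha1-antitrypsin copies were lower, and Serpina12 and, at the other end, Serpina3n passed in neither comparison. Serpina5 was the only tested gene of the cluster on 430A to rise.

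Serpina12 encodes vaspin, an adipokine that inhibits kallikrein 7. Its main probe set was at 447.9, 192, 261.8 and 1654.2 in the normal livers, 569, 989.1 and 378 in the Fah off livers, and 934.4 and 839.9 in the Fah p21 off livers. Normal 4, the double knockout on NTBC, was the highest of all 9 livers, and the groups overlapped. The changes were 0.43 ± 0.59 and 0.99 ± 0.67 and did not pass. Without normal 4 they were 1.05 (adjusted p = 0.046) and 1.61 (adjusted p = 0.0139), whereas with that liver as the only control the change in Fah p21 off liver was -0.89.

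Of the clade B serpins, which act within cells, Serpinb6a and Serpinb9 rose in both groups. Serpinb6a inhibits trypsin-like proteases and cathepsin G. Its signal was 200.8, 203.6, 251.6 and 252.6 in the normal livers, 705.3, 741.1 and 881.7 in the Fah off livers, and 569.2 and 762.4 in the Fah p21 off livers. Every liver off NTBC was above every normal liver, 3.32-fold in Fah off (1.73 ± 0.16, adjusted p = 1.4e-05) and 2.84-fold in Fah p21 off (1.50 ± 0.18, adjusted p = 1.5e-04). The related Serpinb6b was at 90.1 to 111.2, 99.1 to 213.1 and 133.1 to 176.2 in the same groups and did not pass (0.57 ± 0.24 and 0.61 ± 0.27).

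Serpinb9 encodes an inhibitor of granzyme B, the protease of cytotoxic lymphocytes. It was at 222.9, 265, 368.6 and 367.5 in the normal livers, 580.4, 577.4 and 591.2 in the Fah off livers, and 477.9 and 514.9 in the Fah p21 off livers, and the 3 groups did not overlap. Among the normal livers both knockout livers on NTBC were above both wildtype livers. The rise was 1.92-fold in Fah off liver (0.94 ± 0.18, adjusted p = 2.0e-03) and 1.64-fold in Fah p21 off liver (0.71 ± 0.21, adjusted p = 0.024). With the genotype-matched liver as the only control neither passed (0.65, adjusted p = 0.0581, and 0.42, adjusted p = 0.23). In Fah p21 off liver the change kept its size without either of its livers (0.76 and 0.66) and without normal 2 (0.65) but missed the threshold there, at adjusted p of 0.0939, 0.138 and 0.0577. After median scaling it was 0.47 with an adjusted p of 0.064. Serpinb9b was at -0.06 ± 0.18 and 0.11 ± 0.21 and passed in neither.

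Serpinb8, an inhibitor of furin-like and trypsin-like proteases, was the only tested clade B gene to fall. Its signal was 74.8, 108.4, 63 and 93.7 in the normal livers, 33.2, 33.4 and 25.7 in the Fah off livers, and 86.1 and 180.3 in the Fah p21 off livers. The Fah off livers were below all others, and the Fah p21 off livers overlapped the normal range. All Fah off livers were below the 40th percentile of their arrays, which was 73.8 or more. The probe set therefore entered the test through normal and Fah p21 off livers, so a lower value in Fah off liver was in part implied by its entry. The change was -1.20 ± 0.30 in Fah off liver (adjusted p = 8.5e-03) and 0.53 ± 0.34 in Fah p21 off liver (adjusted p = 0.27). With normal 3 as the only control the former was -0.85 with an adjusted p of 0.238.

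Serpinb1a, an inhibitor of neutrophil serine proteases, spread widely among the normal livers. Its main probe set was at 2.6 and 5.2 in the wildtype livers, 403.3 in the Fah knockout on NTBC and 44.8 in the double knockout on NTBC. The Fah off livers were at 182.5, 222.9 and 159.7 and the Fah p21 off livers at 111.3 and 206.6, all within the normal range. The changes of 2.11 ± 0.96 and 1.83 ± 1.08 did not pass (adjusted p = 0.11 and 0.242). Against the wildtype livers alone they were 3.84 and 3.56 and both passed, and without normal 3 they were 3.17 and 2.90 and both passed. Of the normal livers only normal 3 reached the 40th percentile of its array, so entry to the test also needed the livers off NTBC. A rise over the other normal livers was thus implied by entry. Both wildtype values were below the offset of 9.9, so the size of that rise is not exact. Against normal 3 alone the change in Fah off liver was -1.07.

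Serpini1 encodes neuroserpin, an inhibitor of tissue plasminogen activator. A further probe set of the gene, too dim to be tested, overlapped between the groups. It was at 16.7 to 51.7 in the normal livers, 27.1 to 41.8 in the Fah off livers, and 46.5 and 40.7 in the Fah p21 off livers. By the main probe set the signal was also low, at 23.8, 51.3, 8.9 and 26.1 in the normal livers, 53.9, 95.6 and 102 in the Fah off livers, and 95 and 66.6 in the Fah p21 off livers. All normal livers were below the 40th percentile of their arrays, so this probe set too entered the test only through the livers off NTBC. All livers off NTBC were above the normal livers, by 2.65-fold (1.404 ± 0.41, adjusted p = 0.021) and 2.61-fold (1.38 ± 0.47, adjusted p = 0.047). The first change passed in 17 of 21 alternative settings and the second in 5 of 21. Without Fah off liver 2 or 3 the first was 1.30 and 1.26, at adjusted p of 0.0815 and 0.0749. The second missed the threshold without any liver but normal 2, with adjusted p up to 0.265, while the change stayed between 1.09 and 1.61.

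Serpinh1 encodes HSP47, the collagen chaperone of the endoplasmic reticulum, and its probe sets differed in call. The _a_at probe set was at 152.8, 77, 84 and 90.3 in the normal livers, 106.1, 212.9 and 85.5 in the Fah off livers, and 223.4 and 260.2 in the Fah p21 off livers. The Fah p21 off livers were above all others. The change was 0.33 ± 0.30 in Fah off liver (adjusted p = 0.43) and 2.34-fold, 1.23 ± 0.34, in Fah p21 off liver (adjusted p = 0.021). Without either Fah p21 off liver it did not pass (adjusted p = 0.085 and 0.137), nor after median scaling (0.99, adjusted p = 0.0561). By the brighter _x_at probe set the changes were -0.10 ± 0.23 and 0.69 ± 0.26, and neither passed.

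**Figure D3:**
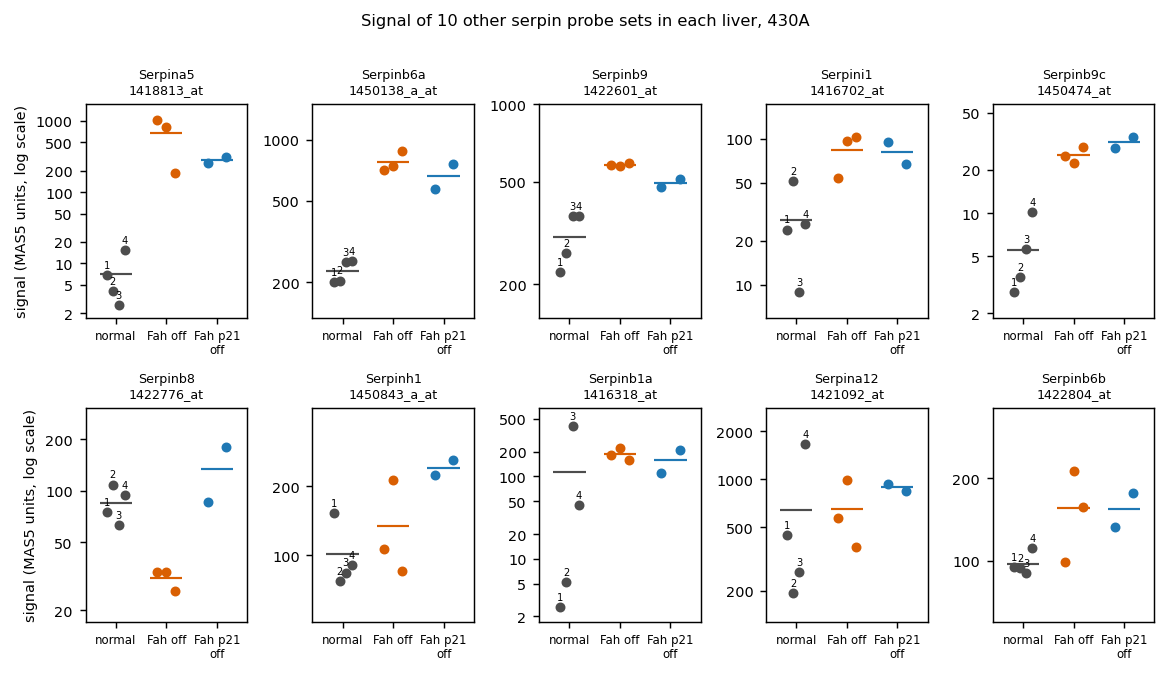
Signal of 10 further serpin probe sets in each liver on 430A, in MAS5 units on log axes; the numbers 1 to 4 mark the normal livers and horizontal lines are group means. Serpina5 rises from 2.6 to 15.3 in normal livers to at least 183.6 off NTBC, while for Serpinb1a and Serpina12 the highest liver is a normal one, at 403.3 and 1654.2.

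Markers of some other cells were higher as well, where 19.7% of all genes were higher in Fah off liver and 17.8% in Fah p21 off liver. The bile duct markers were higher in both groups in 6 of 6 tested (9 on the array), with summed signals of 227.2 to 421.8, 1799.3 to 1884, and 1660.5 to 2710.3. Even as a sum these markers were dim in the normal livers. For any that entered the test through the livers off NTBC a rise was implied by entry, and how many did so was not counted. Macrophage markers were higher in 3 of 12 tested in Fah off liver, near the share of all genes, and in 8 of 12 in Fah p21 off liver. Their summed signals were 6820.8 to 11879.7, 10163.4 to 12474.1, and 13770.8 to 14041.5. Of the stellate cell and fibroblast markers 5 of 15 were higher in Fah off liver and 9 of 15 in Fah p21 off liver, at 5488.6 to 6390.2, 7941.2 to 10579.1, and 11019.5 to 11633.8. Among 4 tested squamous markers only Sprr1a passed in either group, and it was higher. In limma 0 of 7 neutrophil markers passed, with 1 at an unadjusted p under 0.05 in each comparison, and 0 of 5 markers of lymphocytes and natural killer cells passed, with 0 at such a p. The summed neutrophil signal was 826.3 to 1670.4, 793.8 to 971.4, and 1082.8 to 1114.6 in the 3 groups, and no marker of any list was at 0. Of the endothelial markers 1 of 10 tested was higher in each group, and of the mast cell, pancreas and platelet markers 0 of 4 each. In Fah off liver 1 platelet marker was lower. The part of other cells in the changes of Serpina5, Serpinb6a, Serpinb9, Serpini1 and Serpinh1 was not tested.

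A further 15 probe sets of 12 serpin genes were too dim to be tested, with signals from 1.4 to 100 over all 9 livers. For 10 genes no probe set was tested: Serpina3a, Serpinb11, Serpinb1b, Serpinb2, Serpinb5, Serpinb6c, Serpinb7, Serpinb9c, Serpinb9g and Serpini2. A probe set of Serpinb9c was at 2.8, 3.6, 5.6 and 10.2 in the normal livers, 24.8, 22.4 and 28.7 in the Fah off livers and 28.3 and 34 in the Fah p21 off livers. It is singled out here, after its values were seen, because neither off group overlapped the normal livers. How many dim probe sets separate in this way was not counted. By the other Serpinb9c probe set, also untested, the groups overlapped, at 2.6 to 16.1 in the normal livers, 6.4 to 11.5 in the Fah off livers, and 4.2 and 22.2 in the Fah p21 off livers. Serpinb9g was at 7.8 to 25.3, 22.7 to 43.6, and 41.6 and 55.7. An _s_at probe set with the symbols of several Serpinb9 copies, which is no member, was at 83.8 to 105.9 in normal livers, 173, 151.8 and 325.6 in Fah off livers, and 128.9 and 163.4 in Fah p21 off livers. It was higher in Fah off liver (1.03 ± 0.24, adjusted p = 7.1e-03) and did not pass in Fah p21 off liver (0.56 ± 0.28, adjusted p = 0.163).

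The direct comparison of double with single knockout livers, both off NTBC, asks what the loss of p21 adds. By limma 0 of 24 serpin probe sets passed, and 4 had an unadjusted p under 0.05. Over all probe sets 6 of 15307 passed (0.0392%) and 1234 had such a p, and 4 of 9195 main probe sets passed (0.0435%). The 4 serpin probe sets were Serpinb8 (1.74 ± 0.35, adjusted p = 0.129), Serpind1 (0.47 ± 0.20, adjusted p = 0.571) and both Serpinh1 probe sets (0.89 ± 0.36 and 0.79 ± 0.28, adjusted p = 0.556 and 0.471), all higher in the double knockout. Serpinb8 did not enter the test through any Fah off liver, so its difference was in part implied by its entry. Without Fah p21 off liver 1, Serpinb8 was at 2.23 with an adjusted p of 0.0445, a value that rests on 1 remaining double knockout liver, at 180.3. With 3 and 2 livers the test had little precision, and a p that misses the threshold does not show that the groups were alike. As a check of the labels, both wildtype livers had a Fah signal of 6868.1 or more, and the 7 livers of either knockout had 233 or less. Cdkn1a has a pair of probe sets that disagree on the p21 label. By the _a_at probe set both Fah p21 off livers were dim (9.5 and 8.2), while Fah off livers ranged from 989.5 to 1861.5. Its _at probe set was at 1827.6 and 2059.6 in the livers labelled Fah p21 off, above the normal range of 75.2 to 257.7 (11.8-fold, adjusted p = 6.6e-05). The sources used here do not say which of them lies in the deleted stretch of the gene, and a probe set outside that stretch checks no label. The comparisons of p21 loss therefore rest on the labels.

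The 430 2.0 array was used as a check of direction on other double knockout mice, without a test, since it has 1 normal liver. That liver has the title number of normal 4 on 430A, and whether both are of the same mouse is not stated, so the arrays may share a control. It was scaled separately, and its differences are of log2(signal + 3.8). The rule found 56 serpin probe sets of 40 genes on it, 17 of them, of 10 genes, on this array only. Of the 35 that passed its filter, 6 were at least 2-fold higher and 10 at least 2-fold lower in both double knockout livers, against 11.1% and 4.47% of all 26925 probe sets. The filter asks for 2 arrays, so a probe set bright only in the double knockout livers could pass, and 1 bright only in the normal liver could not. This holds for the shares of all probe sets too. Serpina9, at 142.7 in the normal liver and 19.5 and 2.5 in the double knockout livers, did not pass the filter. Of 16 serpin probe sets that passed in Fah p21 off liver on 430A, 15 went the same way in both livers (93.8%), and of all 4353 such probe sets 95.6% did. The exception was the main Serpina1b probe set, at 18648.7 in the normal liver and 19053.6 and 20380 in the double knockout livers. Serpina1c, at 24107.3, 20284.7 and 21369.4, differed by only -0.25 and -0.17.

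Serpins with large changes on 430A went the same way on this array. Serpina5 was at 10.1 in the normal liver and at 546.1 and 783.6 in the double knockout livers. Serpinb6a was at 702.6, 2410.1 and 2203.3, and Serpina10 at 8189.3, 2350.1 and 2451.2. The _a_at probe set of Serpinh1 was at 127, 254.9 and 301.8, and the main probe set of Serpini1 at 32.3, 83 and 105.4. Other Serpini1 probe sets were below the filter and disagreed, at 3, 52.7 and 31.7 and at 18.3, 0.6 and 1.6. Serpinb8, not called in Fah p21 off liver on 430A, was higher in both livers by both of its probe sets, at 225.6, 515.2 and 350.6 and at 65.6, 150.3 and 148.2.

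Further serpins could be read on 430 2.0 alone. Serpina11, a liver serpin of little known function, was at 2935.6 in the normal liver and at 288 and 494.6 in the double knockout livers, 10.1-fold and 5.9-fold lower. Serpina4-ps1, annotated as a pseudogene, was lower by all 3 of its probe sets, the brightest at 3955.7, 318.7 and 205.9. These differences rest on 1 normal liver. Serpina7, which encodes thyroxine-binding globulin, was higher at 1837.3, 2722 and 4281.9. Serpina3i was at 12.3, 49.5 and 49.8, and Serpinb6e, by an _x_at probe set, at 229.1, 57.1 and 108.4.

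**Figure D4:**
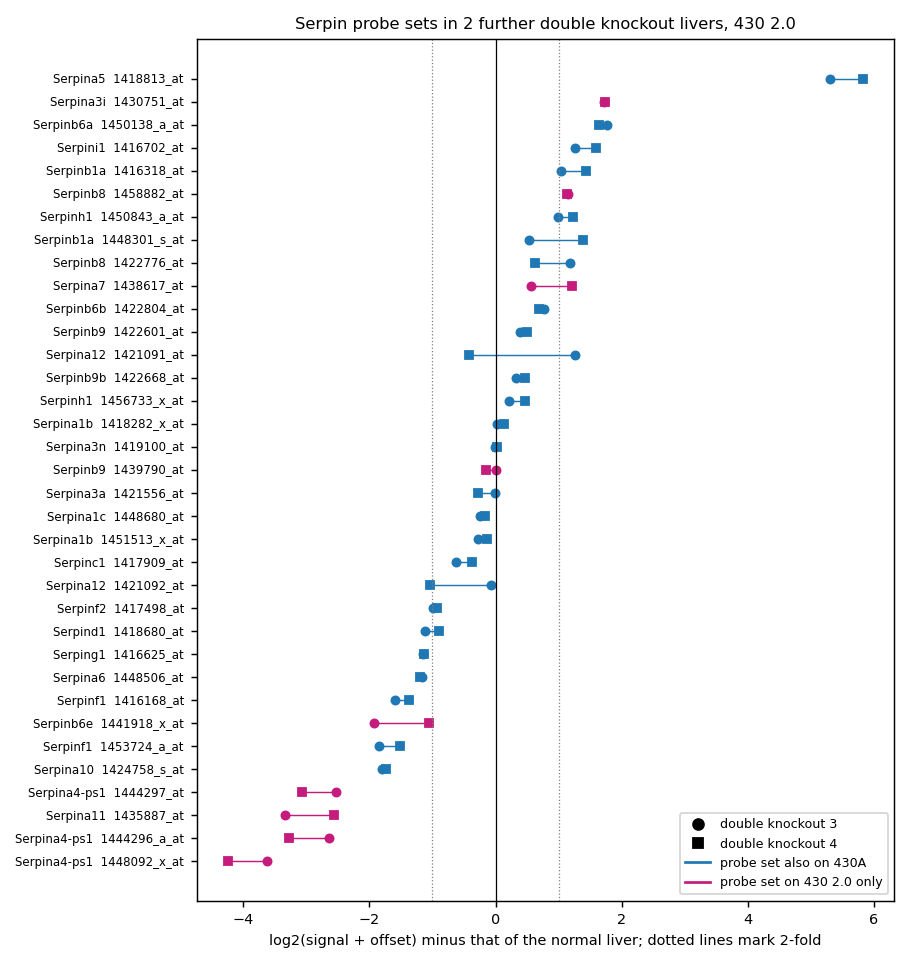
Log2 difference of each double knockout liver off NTBC from the 1 normal liver on the 430 2.0 array, for the 35 serpin probe sets past the filter. Serpina5 lies farthest to the right at 5.31 and 5.82, and the probe sets of Serpina4-ps1 and Serpina11 lie farthest to the left, the lowest at -3.62 and -4.24.

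Proteases, among them targets of serpins, were read from a list of 37 genes chosen with earlier results of these data known, 27 of them tested. In Fah off liver 14 were lower and 4 higher, with a median of -0.97, and in Fah p21 off liver 14 were lower and 5 higher, with a median of -0.99. Over all main probe sets 19.7% were higher and 16.5% lower in Fah off liver, and 17.8% and 11.5% in Fah p21 off liver, with medians of 0.00 and 0.09. The share of higher calls in the list was thus below or near that of all genes. The steepest falls in Fah off liver were of Hgfac, the activator of hepatocyte growth factor (-4.09 ± 0.29), Klkb1, plasma kallikrein (-3.71 ± 0.27), F7, coagulation factor VII (-2.95 ± 0.19) and C1s1, a C1s protease of complement (-2.82 ± 0.31). In Fah p21 off liver they were at -3.06 ± 0.33, -3.35 ± 0.30, -2.30 ± 0.21 and -2.05 ± 0.35. F2, the thrombin precursor that antithrombin inhibits, fell by 1.93 and by 1.60, and Plg, the plasmin precursor that alpha2-antiplasmin inhibits, by 1.21 and by 1.19. The members that rose in Fah off liver were Plat, tissue plasminogen activator (2.50 ± 0.27), Prss8 (2.50 ± 0.40) and St14 (2.40 ± 0.26), both membrane proteases of epithelia, and Casp8, an apoptotic caspase (0.95 ± 0.14). Plat, Prss8 and St14 were dim in the normal livers, at 47.2 to 97.3, 12.9 to 78.8 and 31 to 84.9. They entered the test through the livers off NTBC, so a rise was implied by their entry.

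Cofactors and receptors of serpins were read in the same way. Of 16 tested, 3 were higher and 6 lower in Fah off liver, and 4 were higher and 7 lower in Fah p21 off liver, with medians of -0.18 and 0.01. Over all main probe sets 19.7% were higher and 16.5% lower in Fah off liver, and 17.8% and 11.5% in Fah p21 off liver, so the 3 higher cofactors are near the share of all genes. Procr, the endothelial protein C receptor, rose (3.08 ± 0.39 and 2.56 ± 0.45), as did Thbd, thrombomodulin (1.96 ± 0.25 and 1.72 ± 0.29), and Plaur, the urokinase receptor (1.42 ± 0.21 and 1.399 ± 0.24). Procr was dim in the normal livers (14.2 to 86.3) and entered the test through the livers off NTBC, so a rise was implied by its entry. F5, coagulation factor V, fell (-2.14 ± 0.22 and -2.11 ± 0.25).

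Protease inhibitors outside the serpin family were mostly lower where they passed. Of 28 tested, 13 were lower and 4 higher in each of the groups, with medians of -0.37 and -0.43, beside the same background of 19.7% higher and 16.5% lower, and 17.8% and 11.5%. Their higher calls were not more frequent than those of all genes. Itih1 and Itih4, heavy chains of the inter-alpha-trypsin inhibitors, fell (-3.84 ± 0.15 and -2.93 ± 0.29 in Fah off liver, -3.28 ± 0.16 and -1.83 ± 0.33 in Fah p21 off liver). Mug1, a macroglobulin, went from between 8609.9 and 9862.4 in the normal livers to between 239.5 and 575.3 in the Fah off livers, while Spink1, the trypsin inhibitor of the pancreas, went from between 5.9 and 11.3 to between 434.5 and 481.2. Spink1 entered the test through the livers off NTBC, so a rise was implied by its entry.

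Transcription factors and receptors that govern hepatocyte genes were read next. Of 27 tested, 10 were lower and 2 higher in each of the groups, though not all of the lower genes were the same. The medians were -0.36 and -0.50, where 16.5% and 11.5% of all main probe sets were lower and their medians were 0.00 and 0.09. The largest changes were in Ghr, the growth hormone receptor (-2.40 ± 0.28 and -2.25 ± 0.31), Il1r1, the interleukin-1 receptor (1.96 ± 0.45 and 1.71 ± 0.51), and the transcription factor genes Onecut1 (-1.62 ± 0.36 and -1.28 ± 0.41) and Rxra (-1.51 ± 0.20 and -1.47 ± 0.23). Il1r1 was dim in the normal livers (30.8 to 53) and entered the test through the livers off NTBC, so a rise was implied by its entry.

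Partners of HSP47, that is collagens, collagen-modifying enzymes and chaperones of the endoplasmic reticulum, were read beside Serpinh1. Of 19 tested, 1 was higher and 4 lower in Fah off liver, and 6 were higher and 3 lower in Fah p21 off liver, with medians of 0.08 and 0.17. In Fah off liver the lower calls are near the 16.5% of all genes and the 1 higher call is below their 19.7%, and in Fah p21 off liver the shares of all genes are 17.8% higher and 11.5% lower. In Fah p21 off liver Col3a1 (2.55 ± 0.55), Col1a2 (1.65 ± 0.38) and Col5a2 (1.21 ± 0.26), all fibrillar collagen chains, were higher, and Pdia4, a disulfide isomerase, was lower (-1.16 ± 0.20). In Fah off liver Col3a1 was at 1098.9, 1269 and 241.9, so that liver 3 lay within the normal range of 189.8 to 414.1, and its change of 1.27 ± 0.48 did not pass.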

How the data were processed

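Liver RNA of 12 mouse samples was measured on Affymetrix arrays, 9 of the 430A and 3 of the 430 2.0 design. The authors deposited a linear intensity signal for every probe set of every array. GCOS 1.4.0.036 and the MAS5 algorithm are named as their software in the submitters' processing notes. Groups follow the titles. The 64 control probe sets were left out. The offset of the log2 scale was each table's 10th percentile of signal (9.9 and 3.8). Limma 3.58.1 in R 4.3.3 (lmFit, eBayes with trend) was fitted to all 9 arrays of 430A, with 6 residual and 5.01 prior degrees of freedom, and adjusted p-values are Benjamini-Hochberg values over all 15307 probe sets tested. The fit was tested on simulated data. No pair of arrays shared more than 0.407% identical signals. Tests were made within a table only.

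Gene symbols are those of the platform annotation in GEO, and probe sets with several symbols named no gene. All 39 serpin probe sets matched GRCm38.p6 by identifier, a table used for names and gene order only. Promoter windows are RefSeq's. Members and lists were chosen with earlier results of these data known. Signals in every liver are given for members whose main probe set passed with at least a 2-fold change, and for others where 1 liver or probe set decides the call. Of each list up to 4 members with the largest changes that passed are named. F2, Plg and Casp8 were added after their values were seen, since F2 and Plg are the targets of serpins described. Alternatives were the filter, the offset, the scaling, limma's settings, the samples in the fit, the replicate number as a block, the control livers, the probe set types, a 2-fold minimum, and leaving out each liver. Figures were drawn with matplotlib 3.10.9.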

Additional observations from a re-analysis of the deposited data

Results flagged for a closer look

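Of 24 serpin probe sets looked at, 1 had a normal liver that stood apart from the other 3. Serpinc1 was at 11053 in normal 2, the wildtype mouse on NTBC, and at 12136.4 to 12358.7 in the others, a gap of 0.837 of the group's range, which is past the critical value of Dixon's test for 4 samples. Chance flags about 1 in 20 groups. Normal 2 still lay above all livers off NTBC, the highest of which was at 7768.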

How the results depend on the processing

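In 32 cases a serpin probe set passed against the normal livers, and over 22 alternatives this gave 701 values, of which 653 kept direction and call, 48 kept the direction but did not pass and 0 changed direction; 17 of the 32 passed throughout. The cause of the changes below was not tested. With a 2-fold minimum 10 serpin probe sets passed in each comparison, and with the genotype-matched control 9 in Fah p21 off liver. Over the fits that leave out a liver, 15 to 18 serpin probe sets passed in Fah off liver, 11 to 16 in Fah p21 off liver and 0 to 1 between the off groups, the 1 being Serpinb8 without Fah p21 off liver 1. Scaling moved the split of all calls in Fah p21 off liver from 62.4% higher (median change 0.11) to 51.7% after quantile normalization (-0.02) and 39.3% after median scaling (-0.13). The serpin split there went from 5 higher and 11 lower to 4 and 7, and 2 and 11.

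Over all probe sets the calls in Fah off liver were 5437, and 2572 with the genotype-matched control, 2265 with a 2-fold minimum and 3327 by main probe sets. In Fah p21 off liver they were 4353, and 1824, 2135 and 2701 in the same order, and 2533 to 4663 when a liver was left out (2533 and 2595 without Fah p21 off liver 1 and 2). Between the off groups there were 6, and 1 with the higher filter, no offset, the replicate block, only wildtype controls or genotype-matched controls, 14 with an offset at the 25th percentile, 3 after median scaling, 13 without the trend, 2 with robust limma or only the groups compared, and 1 to 80 when a liver was left out (80 without Fah p21 off liver 1).

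Directions turned only for changes that had not passed. With the genotype-matched control these were Serpina12 in Fah p21 off liver (-0.89), Serpinb1a in Fah off liver (-1.07 and -0.61 by its probe sets), Serpinb9b in both (0.052 and -0.34) and the _x_at probe set of Serpinh1 in Fah off liver (0.082). Serpina3n in Fah p21 off liver was 0.14 after quantile normalization and -0.47 to 0.27 with a liver left out. Serpinb9b was 0.091 with the replicate block, 0.11 against wildtype livers and -0.15 to 0.091 with a liver left out in Fah off liver, and -0.11 after quantile and -0.12 after median scaling in Fah p21 off liver. In Fah off liver Serpinh1 was 0.12 as a mean of probe sets, and with a liver left out -0.030 to 0.58 by its _a_at and -0.31 to 0.14 by its _x_at probe set.

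Livers with the same title number correlated at -0.28 to 0.07 in their deviations (7 pairs) and others at -0.20 to 0.26 (19 pairs), so the numbers were not taken to pair livers. With the replicate block 15 serpin probe sets passed in each comparison against normal and 0 between the off groups. Dim probe sets, 15 of 39, were not tested.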
